A study of Homo sapiens with 4 samples.

Results

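Histone lysine methyltransferases (writers) and demethylases (erasers) were followed in HCT116, a line established from a human colorectal carcinoma, after transfection of a control siRNA (2 arrays) or of an siRNA against TET1 (2 arrays). The set was a list of 42 genes, 26 writers and 16 erasers, and every probe set annotated to exactly 1 of these symbols, older aliases included, was taken. This gave 143 probe sets for 41 genes, of 41091 probe sets for 19775 genes on the array. ASH1L, a methyltransferase of histone H3 lysine 36 (H3K36), was not analysed here. Both groups share the cell line, the lipid transfection reagent and the medium, the samples are described as biological duplicates, and the labels name 1 siRNA condition against TET1, so an effect of TET1 loss and an effect of the siRNA itself cannot be told apart.

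Writers attach methyl groups to lysines of histone tails, most of them through a SET domain, and erasers remove them, either by the flavin-dependent LSD enzymes or by the JmjC enzymes, which use iron and 2-oxoglutarate as the TET proteins do. Methylation of H3K4 marks promoters and enhancers, that of H3K36 and H3K79 marks transcribed genes, and that of H3K9, H3K27 and H4K20 is tied to silencing and chromatin compaction. TET1 oxidises methylated cytosine in DNA, and KMT2C and KMT2D are often mutated in colorectal tumours.

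Each array gave 1 signal per probe set on a linear scale of arbitrary units, scaled so that the arrays share a trimmed mean. The TET1 transcript itself went from 58.1 and 59.6 under control siRNA to 14.6 and 15 under TET1 siRNA (log2 difference -1.28, SE 0.20, limma adjusted p = 9.69e-04). Its size depends on the pseudocount, with -1.92 at a pseudocount of 1 and -0.64 at 64, both past the threshold. The TET1 siRNA values lie near the signal used as filter for dim genes (13.1). A second TET1 probe set read 18.2 and 35.5 against 6 and 8.9 and did not pass by itself (log2 difference -0.84, limma adjusted p = 0.0509). Of the epithelial markers EPCAM, KRT8, KRT18, KRT19 and CDH1 read 394 or more on every array, while the intestinal markers CDX2, CDX1 and CDH17 lay below the filter for dim genes and KRT20 and VIL1 gave 6.6 to 29.8. KRT8 was higher after TET1 siRNA (log2 difference 0.32) and CDH1 lower (-1.16). Summed signals of 4 leukocyte markers ran from 20.7 to 37.8 under control siRNA and from 33.1 to 36.3 with TET1 siRNA, and those of 5 endothelial markers from 30.1 to 47.9 and from 24.3 to 36.6. Those of 6 fibroblast markers ran from 312.4 to 353.6 and from 386 to 491.6, nearly all of it COL1A1, which rose (log2 difference 0.47). Their part in the results below was not tested.

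The share of the enzymes that passed lay near that of all genes. Of the 41 genes 40 lay above the filter for dim genes, and SETD1A, an H3K4 writer with signals of 7.8 to 16.6, did not. After TET1 siRNA 4 of the 40 rose (SETD7, KMT2C, KDM5A and JMJD1C) and 5 fell (SUV39H2, KMT5B, KDM4B, NSD2 and KMT5A) at a limma adjusted p below 0.05, which is 22.5%, against 21.9% of all 12389 genes tested (11.2% higher and 10.6% lower). All log2 differences are TET1 siRNA minus control siRNA on the log2(signal + 16) scale, with the brightest probe set standing for a gene. They ran from -0.68 to 0.77, with a median of -0.060 over the 40 enzymes and 0.0098 over all genes tested. In 23 of the 40 (57.5%) the groups did not overlap, compared with 59.0% of all genes. Leaving out TET1 siRNA replicate 1 left 1 rise and 4 falls (13.7% of all genes called), and leaving out replicate 2 of that group left 2 and 4 (13.9%). With no trend of variance on signal, where 7.94% of all genes passed, KMT2C, KDM5A and JMJD1C did not (adjusted p = 0.0728, 0.0616 and 0.105). In limma without moderation 0 of the 12389 genes passed, the enzymes included (4 of them higher and 5 lower at unadjusted p below 0.05). SUV39H2 and NSD2 passed in every other alternative tried. RNA came from whole cultures, so fewer cells expressing a gene and less RNA per cell cannot be told apart.

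Rises and falls occurred among both writers and erasers. Of 24 writers 2 rose, 4 fell and 18 did not pass, and of 16 erasers 2 rose, 1 fell and 13 did not pass. The median log2 difference was -0.060 for writers and -0.063 for erasers, and the difference between the classes was not tested. Summed over all members' brightest probe sets, the signal came to 9599 and 9738 under control siRNA, against 9468 and 9511 under TET1 siRNA.

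**Figure D1:**
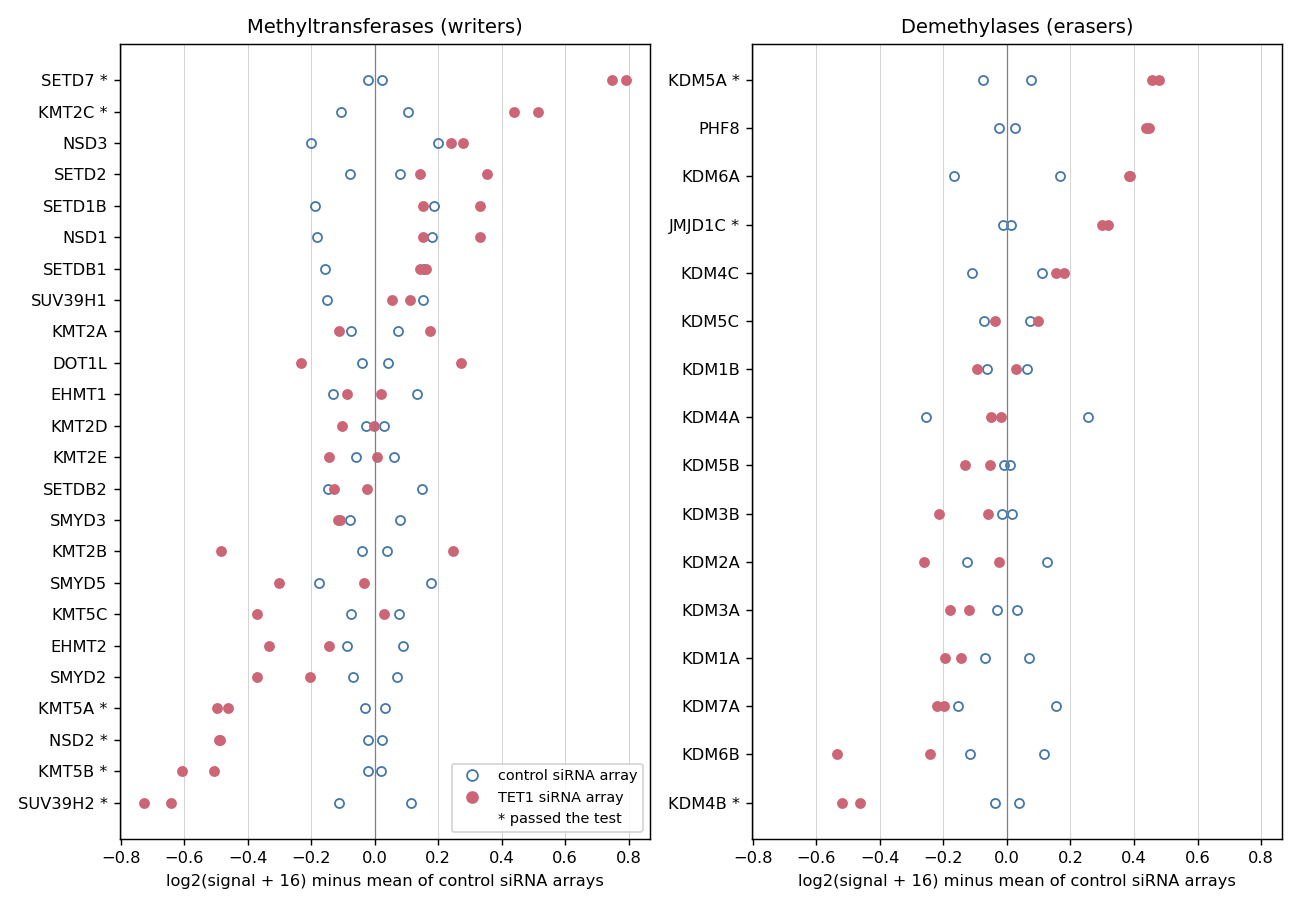
Each row is 1 of 40 enzymes, and the points give log2(signal + 16) on each array minus the mean of the 2 control siRNA arrays (open circles control siRNA, filled circles TET1 siRNA); an asterisk marks the 9 that passed the limma test. Among writers SETD7 (0.77) lies at the top and SUV39H2 (-0.68) at the bottom, and among erasers KDM5A (0.47) and KDM4B (-0.49).

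The 250 bases before the annotated start are shown for 3 genes that fell and 2 that rose, because the former are the enzymes that fell whose window holds a match to the letters searched, and the latter led the rises among writers and erasers. The sequences are from RefSeq (GRCh38.p14), 5′ to 3′ on the strand of the gene, and the genes were chosen after their values and sequences were seen. Capitals mark matches, on either strand, to CCAAT, to TTTCCCGC or TTTGGCGC (E2F-type letters), to TTTGAA and to CATTCC (TEAD-type letters). The windows are chr4:1871143-1871392 (+ strand), chr12:123383882-123384131 (+ strand), chr19:4968863-4969112 (+ strand), chr4:139556220-139556469 (- strand) and chr12:389321-389570 (- strand).
NSD2: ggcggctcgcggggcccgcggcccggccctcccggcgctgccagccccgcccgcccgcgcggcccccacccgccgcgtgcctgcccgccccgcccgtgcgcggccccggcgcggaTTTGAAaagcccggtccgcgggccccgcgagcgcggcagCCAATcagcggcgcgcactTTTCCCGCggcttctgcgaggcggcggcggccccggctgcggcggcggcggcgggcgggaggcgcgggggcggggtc
KMT5A: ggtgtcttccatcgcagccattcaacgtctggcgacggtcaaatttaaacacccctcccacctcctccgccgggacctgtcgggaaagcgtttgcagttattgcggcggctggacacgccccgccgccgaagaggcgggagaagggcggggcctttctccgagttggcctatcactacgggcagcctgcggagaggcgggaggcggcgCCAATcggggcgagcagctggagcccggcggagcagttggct
KDM4B: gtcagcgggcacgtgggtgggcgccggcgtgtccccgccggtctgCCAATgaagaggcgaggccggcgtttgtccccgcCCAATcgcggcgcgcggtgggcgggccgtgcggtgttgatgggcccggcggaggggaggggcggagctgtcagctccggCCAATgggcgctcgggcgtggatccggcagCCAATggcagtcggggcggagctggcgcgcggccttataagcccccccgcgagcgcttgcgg
SETD7: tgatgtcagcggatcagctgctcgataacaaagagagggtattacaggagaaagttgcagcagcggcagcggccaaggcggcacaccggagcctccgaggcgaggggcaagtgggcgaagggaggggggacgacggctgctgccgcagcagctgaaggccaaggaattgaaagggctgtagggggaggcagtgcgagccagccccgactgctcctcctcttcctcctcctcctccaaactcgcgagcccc
KDM5A: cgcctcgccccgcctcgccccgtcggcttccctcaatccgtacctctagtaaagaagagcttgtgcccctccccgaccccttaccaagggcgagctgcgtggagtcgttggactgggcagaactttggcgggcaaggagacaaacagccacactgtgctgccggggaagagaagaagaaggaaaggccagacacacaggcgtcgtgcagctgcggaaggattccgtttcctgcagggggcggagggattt
The KDM4B window held 4 CCAAT matches, that of KMT5A 1, and that of NSD2 1 of CCAAT, 1 of the E2F-type letters and 1 of TTTGAA, while those of SETD7 and KDM5A held none of the strings searched. CCAAT occurred in 3 of the 5 windows of enzymes that fell, in 0 of the 4 of enzymes that rose, in 9 of the 39 windows found for the listed enzymes (23.1%) and in 34.9% of 10106 windows of genes tested (33% of all 27305). The windows of SUV39H2 and KMT5B, which fell as well, held none of the strings. The E2F-type letters were in 3.13% of the windows of genes tested, TTTGAA in 8.47% and CATTCC in 9.22% (1.96%, 13.6% and 11.9% of all windows). Of the 39 enzyme windows, 2 held the E2F-type letters (5.13%), 2 held TTTGAA (5.13%) and 3 held CATTCC (7.69%). Besides NSD2, the E2F-type letters were in KDM1B and TTTGAA was in PHF8, and neither of these enzymes passed. CG pairs numbered 26 to 50 in the windows of the 5 enzymes that fell and 5 to 48 in those of the 4 that rose, with a median of 21 over genes tested. These matches are letters in a window, not binding sites.

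Among H3K4 writers 2 of 6 tested rose and none fell, while 11.2% of all genes tested rose and 10.6% fell. Their median log2 difference was 0.14, against 0.24 for the H3K36 writers, none of which rose. Over H3K4 writers and erasers together it was 0.029. SETD7, which monomethylates H3K4 and also many proteins other than histones, had the largest rise among the 40 enzymes. Its signal was 493.1 and 509.3 on the control arrays, against 879.2 and 851.8 after TET1 siRNA (501.2 ± 11.5 against 865.5 ± 19.4, SD, n = 2 each). The groups stood far apart, and the log2 difference was 0.77 (SE 0.078, limma adjusted p = 6.68e-05). The only other SETD7 probe set was dim (9.8 and 9.1 against 3.2 and 8.6) and was not tested; when a gene's probe sets were averaged SETD7 no longer passed (log2 difference 0.27, adjusted p = 0.117).

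KMT2C, a large subunit of a COMPASS-type complex that marks enhancers with monomethyl H3K4, read 179.8 and 210.5 with control siRNA, against 284.7 and 269.5 with TET1 siRNA. Both TET1 siRNA arrays lay above both controls (log2 difference 0.48, SE 0.11, limma adjusted p = 0.0108). Of its 5 tested probe sets 4 had a higher value and 1 passed by itself. The call ended without control siRNA replicate 1 (adjusted p = 0.0691) and without TET1 siRNA replicate 1 (adjusted p = 0.0744), and when a gene's probe sets were averaged (log2 difference 0.29, adjusted p = 0.151). Its close relative KMT2D had a log2 difference of -0.05 (adjusted p = 0.808), with arrays of both groups interleaved.

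The other H3K4 writers did not pass. KMT2A, the founding MLL gene, stood at 0.03 (adjusted p = 0.915), and 5 of its 6 tested probe sets had a higher value while none passed. KMT2B had -0.12, with TET1 siRNA arrays at 25.1 and 52.2 on either side of both controls (40 and 43.1). SETD1B, catalytic subunit of the complex that places most trimethyl H3K4, had 0.24 (adjusted p = 0.282). KMT2E, a SET protein with no established histone activity, was not counted among the H3K4 writers. It had a log2 difference of -0.07 and did not pass either (adjusted p = 0.692).

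On the eraser side of H3K4, KDM5A rose and the 4 others did not pass. KDM5A, a JmjC demethylase of trimethyl H3K4, read 117.9 and 104.7 on the control arrays, against 158.6 and 161.3 after TET1 siRNA. The groups did not overlap, the log2 difference was 0.47 (SE 0.13, limma adjusted p = 0.0213), and all 4 tested probe sets of the gene had a higher value, from 0.32 to 0.63 on the log2 scale, of which 1 passed by itself. The call ended without control siRNA replicate 2 (adjusted p = 0.102), without TET1 siRNA replicate 1 (0.0913), without TET1 siRNA replicate 2 (0.106), with no filter on dim genes (0.0595) and when a gene's probe sets were averaged (0.0542). Its paralogues KDM5B (-0.09, adjusted p = 0.507) and KDM5C (0.03, adjusted p = 0.922) did not pass. KDM1A (LSD1), the flavin-dependent H3K4 demethylase of the CoREST complex, had -0.17 (adjusted p = 0.187), with signals of 609.9 and 673.2 against 578.2 and 558.2, and its relative KDM1B had -0.03 (adjusted p = 0.880).

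**Figure D2:**
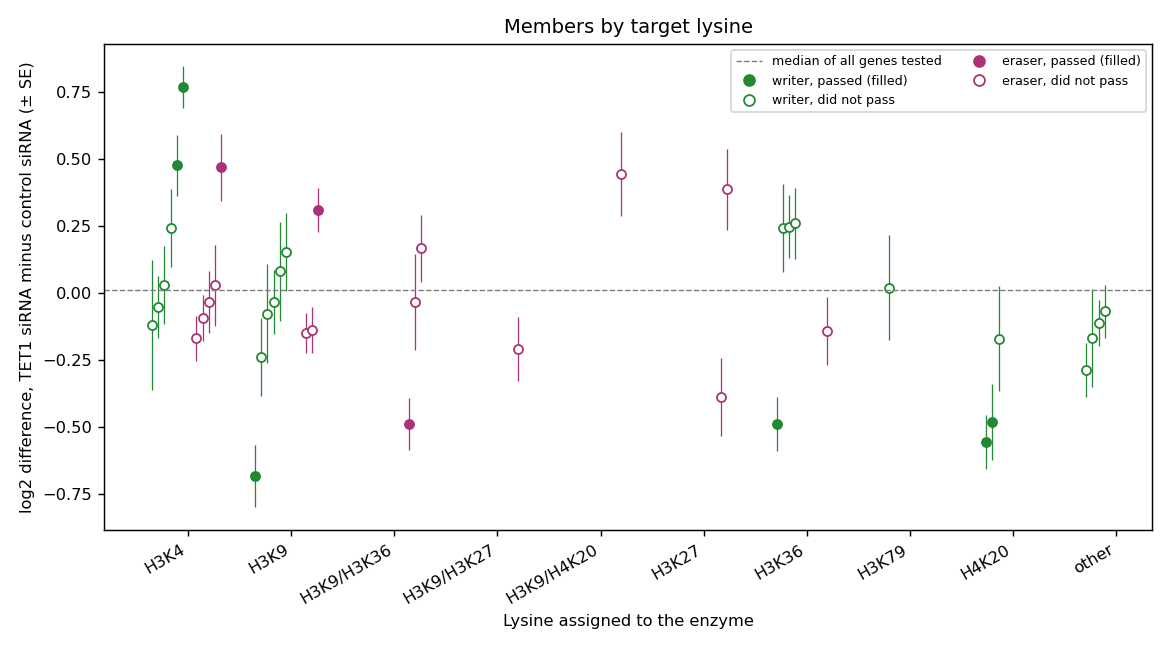
The log2 difference (TET1 siRNA minus control siRNA, points, ± SE from limma) of the 40 tested enzymes is set out by the lysine assigned to each, writers in green and erasers in purple, filled where the test was passed. The H4K20 writers all lie below 0, although KMT5C did not pass and changed sign in an alternative. H3K4, with 11 of the 40 enzymes, holds 3 of the 4 rises (2 writers and 1 eraser), while 11.2% of all genes tested rose. The dashed line is the median of all genes tested (0.0098).

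Among the H3K9 writers SUV39H2 fell and the 5 others did not pass. SUV39H2, a methyltransferase that builds trimethyl H3K9 in heterochromatin, had the largest fall among the 40 enzymes. It read 253.8 and 299.5 with control siRNA, against 170.8 and 160.4 with TET1 siRNA. Both TET1 siRNA arrays lay well below both controls, and the log2 difference was -0.68 (SE 0.12, limma adjusted p = 0.00164). A second probe set had 33 and 27.7 against 16.1 and 17.2 and did not pass by itself (log2 difference -0.50, adjusted p = 0.137). The paralogue SUV39H1 had a log2 difference of 0.08 (adjusted p = 0.812), with 53.1 and 50.4 after TET1 siRNA lying between the control values of 41.6 and 55.1.

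EHMT2 (G9A), a mono- and dimethyltransferase of H3K9, had 116.5 and 101.2 against 83 and 96.7, without overlap but short of the threshold (log2 difference -0.24, adjusted p = 0.290). A second EHMT2 probe set went the other way without passing (0.33, adjusted p = 0.301). Its partner EHMT1 (GLP) had -0.03. SETDB1, which silences retroelements together with TRIM28, had 0.15 (adjusted p = 0.523), and SETDB2 had -0.08.

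Erasers with H3K9 among their targets split into 1 rise, 1 fall and 6 that did not pass. KDM4B, a JmjC enzyme acting on trimethyl H3K9 and H3K36, read 333.8 and 353.4 on the control arrays, against 234.9 and 245 after TET1 siRNA. The groups did not overlap (log2 difference -0.49, SE 0.098, limma adjusted p = 0.00426). All 5 tested KDM4B probe sets had a lower value, but only that probe set passed by itself. The next brightest had 305.9 and 309.2 against 250.4 and 268.2 (-0.23, adjusted p = 0.141). The ratio of these probe sets within an array was taken as log2 with 16 added to each signal. It was 0.12 and 0.18 for the control arrays but -0.086 and -0.12 for the TET1 siRNA arrays, without overlap. The pair was chosen after its values were seen, and the difference was not tested. The call for KDM4B ended when a gene's probe sets were averaged (log2 difference -0.18, adjusted p = 0.394) and without _x_at and _s_at probe sets (-0.34, adjusted p = 0.118).

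JMJD1C, a JmjC protein of the KDM3 family whose demethylase activity is debated, rose by a small amount. It read 447 and 454.8 with control siRNA, against 559.1 and 565.7 with TET1 siRNA. The arrays of a group lay close together and the groups apart (log2 difference 0.31, SE 0.082, limma adjusted p = 0.020). Its second brightest probe set passed by itself as well (256.6 and 270.5 against 350.1 and 322.8, log2 difference 0.33, adjusted p = 0.0437), and all 4 tested had a higher value. The JMJD1C call ended when any 1 of the 4 arrays was left out (adjusted p from 0.0603 to 0.0978) and when a gene's probe sets were averaged (log2 difference 0.22, adjusted p = 0.187).

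The H3K9 demethylases KDM3A and KDM3B, closest relatives of JMJD1C, stood at -0.15 (adjusted p = 0.191) and -0.14 (adjusted p = 0.296) on the log2 scale, each with groups that did not overlap. KDM4A had -0.03 and KDM4C 0.17 (adjusted p = 0.395). PHF8, which acts on H3K9 and monomethyl H4K20, read 53.1 and 55.5 against 79.3 and 79.9, with tight pairs, and did not pass (0.44, adjusted p = 0.0666; 0.0465 after quantile normalization). KDM7A, an eraser of H3K9 and H3K27, had -0.21 (adjusted p = 0.253).

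On their brightest probe sets the H3K27 demethylases had opposite values of similar size, and neither passed. KDM6A (UTX) read 77.3 and 101.5 on the control arrays, against 121.1 and 120.8 after TET1 siRNA (log2 difference 0.39, adjusted p = 0.0927), and all 3 of its tested probe sets had a higher value; it was at 0.55 (adjusted p = 0.0461) without control siRNA replicate 2, at 0.22 (0.386) without control siRNA replicate 1 and at 0.12 (0.548) with averaged probe sets. Of the 5 tested probe sets of KDM6B (JMJD3) 3 had a lower value, and the dimmer ones ran from -0.20 to 0.32. KDM6B read 171.5 and 143.6 against 103.3 and 130.1 on the brightest (-0.39, adjusted p = 0.0791). Their counterpart EZH2, the H3K27 methyltransferase of Polycomb, fell from 299.5 ± 9.55 to 185.4 ± 1.13 (SD, n = 2 each; log2 difference -0.65, SE 0.10, limma adjusted p = 0.00107).

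Among 4 H3K36 writers tested NSD2 fell and the 3 others did not pass. NSD2, a dimethyltransferase of H3K36 overexpressed in myeloma with a translocation, read 284.2 and 293.6 with control siRNA, against 201.2 and 201.6 with TET1 siRNA. The arrays within each group were nearly equal and the groups well apart (log2 difference -0.49, SE 0.10, limma adjusted p = 0.00543). NSD2 was also the enzyme with most probe sets past the threshold: all 6 tested had a lower value and 5 passed by themselves. These probe sets read transcripts of 1 gene and are not replicates.

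The NSD2 probe sets covered a range of values. The probe set with the largest fall read 90.9 and 93.1 on the control arrays, against 29.1 and 28.7 after TET1 siRNA (log2 difference -1.27, SE 0.17, adjusted p = 5.66e-04 over probe sets). The other 5 had log2 differences from -0.73 to -0.49. The ratio of that probe set to the brightest one within an array was taken as log2 with 16 added to each signal. It was -1.49 and -1.50 for the control arrays but -2.27 and -2.28 for the TET1 siRNA arrays, a difference of -0.78 without overlap. The dimmer probe set of this pair was chosen for its fall, and the difference was not tested. Which NSD2 transcripts each probe set reads was not analysed here.

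Of the other H3K36 writers, SETD2, which alone places trimethyl H3K36 in most cells, had 0.25 (adjusted p = 0.166), with a higher value in all 3 tested probe sets. NSD1 had 0.24 (adjusted p = 0.342), but 0.061 without control siRNA replicate 2, and 2 of its 3 tested probe sets had a lower value, so that it was at -0.064 when they were averaged. NSD3 had 0.26 (adjusted p = 0.1995), with 0.46 (0.0339) without control siRNA replicate 1, 0.060 (0.808) without control siRNA replicate 2 and 0.022 (0.925) when its probe sets, 3 higher and 3 lower, were averaged. The H3K36 eraser KDM2A had -0.14 (adjusted p = 0.488), with 2 of its 3 tested probe sets higher and 0.198 (0.350) when they were averaged. DOT1L, the H3K79 methyltransferase, had 0.02 (adjusted p = 0.961).

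The H4K20 writers were the class with the lowest median (-0.48 over 3 enzymes). Of these 2 fell and KMT5C did not pass, while 10.6% of all genes tested fell. KMT5B, a di- and trimethylating enzyme of H4K20, read 329.7 and 319.9 with control siRNA, against 223.7 and 207.6 with TET1 siRNA. The groups lay well apart (log2 difference -0.56, SE 0.10, limma adjusted p = 0.00231). Another KMT5B probe set did not follow (54.4 and 76.6 against 58.2 and 69.8, log2 difference -0.02, adjusted p = 0.968). The remaining one had 43 and 36.4 against 29.3 and 17.4, lower without overlap, and did not pass by itself (-0.52, adjusted p = 0.142). When a gene's probe sets were averaged KMT5B no longer passed (log2 difference -0.36, adjusted p = 0.0528).

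KMT5A (SET8), which places the first methyl group on H4K20 and whose protein level varies through the cell cycle, read 104.6 and 110 on the control arrays, against 73.4 and 71.3 after TET1 siRNA. Both arrays of the TET1 siRNA group lay below both controls (log2 difference -0.48, SE 0.14, limma adjusted p = 0.0328). All 4 tested KMT5A probe sets had a lower value and 2 passed by themselves, the second with 121 and 92.6 against 50 and 69.1 (-0.70, adjusted p = 0.0230). The gene's call ended when any 1 of the 4 arrays was left out (adjusted p from 0.0730 to 0.130) and with no filter on dim genes (0.0948). KMT5C, which like KMT5B adds the second and the third methyl group, had -0.17 (adjusted p = 0.606) with overlapping groups, and 0.028 without TET1 siRNA replicate 1.

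The SMYD enzymes, SET proteins with a MYND zinc finger that methylate both histones and other proteins, did not pass. SMYD2 read 395.4 and 437.2 against 358.5 and 318 (log2 difference -0.29, adjusted p = 0.0610; 0.0472 with the upper-quartile filter). SMYD3 had -0.11 (adjusted p = 0.401) and SMYD5 -0.17 (adjusted p = 0.579). Among the enzymes that did not pass, KMT2A, KMT2B, KMT2D, KMT2E, KMT5C, SETDB1, SETDB2, SUV39H1, EHMT1, EHMT2, NSD1, DOT1L, SMYD5, KDM1B, KDM2A, KDM4A and KDM5C changed sign in at least 1 alternative, so no direction is given for them.

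With every probe set above the filter tested by itself, 5 of 108 member probe sets rose and 10 fell (13.9%), against 16.1% of all 27306 probe sets (7.76% higher and 8.31% lower). Writers held 2 of the rises and 9 of the falls among 65 tested, and erasers 3 and 1 among 43. Of the 10 falls 5 belong to NSD2 alone. The rises numbered 3 without control siRNA replicate 1, and 1 or 2 when replicate 1 or replicate 2 of the TET1 siRNA group was dropped. No enzyme had probe sets that passed in opposite directions. Of 30 enzymes with 2 or more tested probe sets, 14 had all of them on the same side of 0, and the share over all genes was not computed. JMJD1C, KDM5A, KDM6A and SETD2 were among those above and NSD2, KDM4B, KMT5A, KMT5B and SUV39H2 among those below. KMT5B and KDM4B each included a probe set close to 0 with overlapping groups (-0.017 and -0.015).

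**Figure D3:**
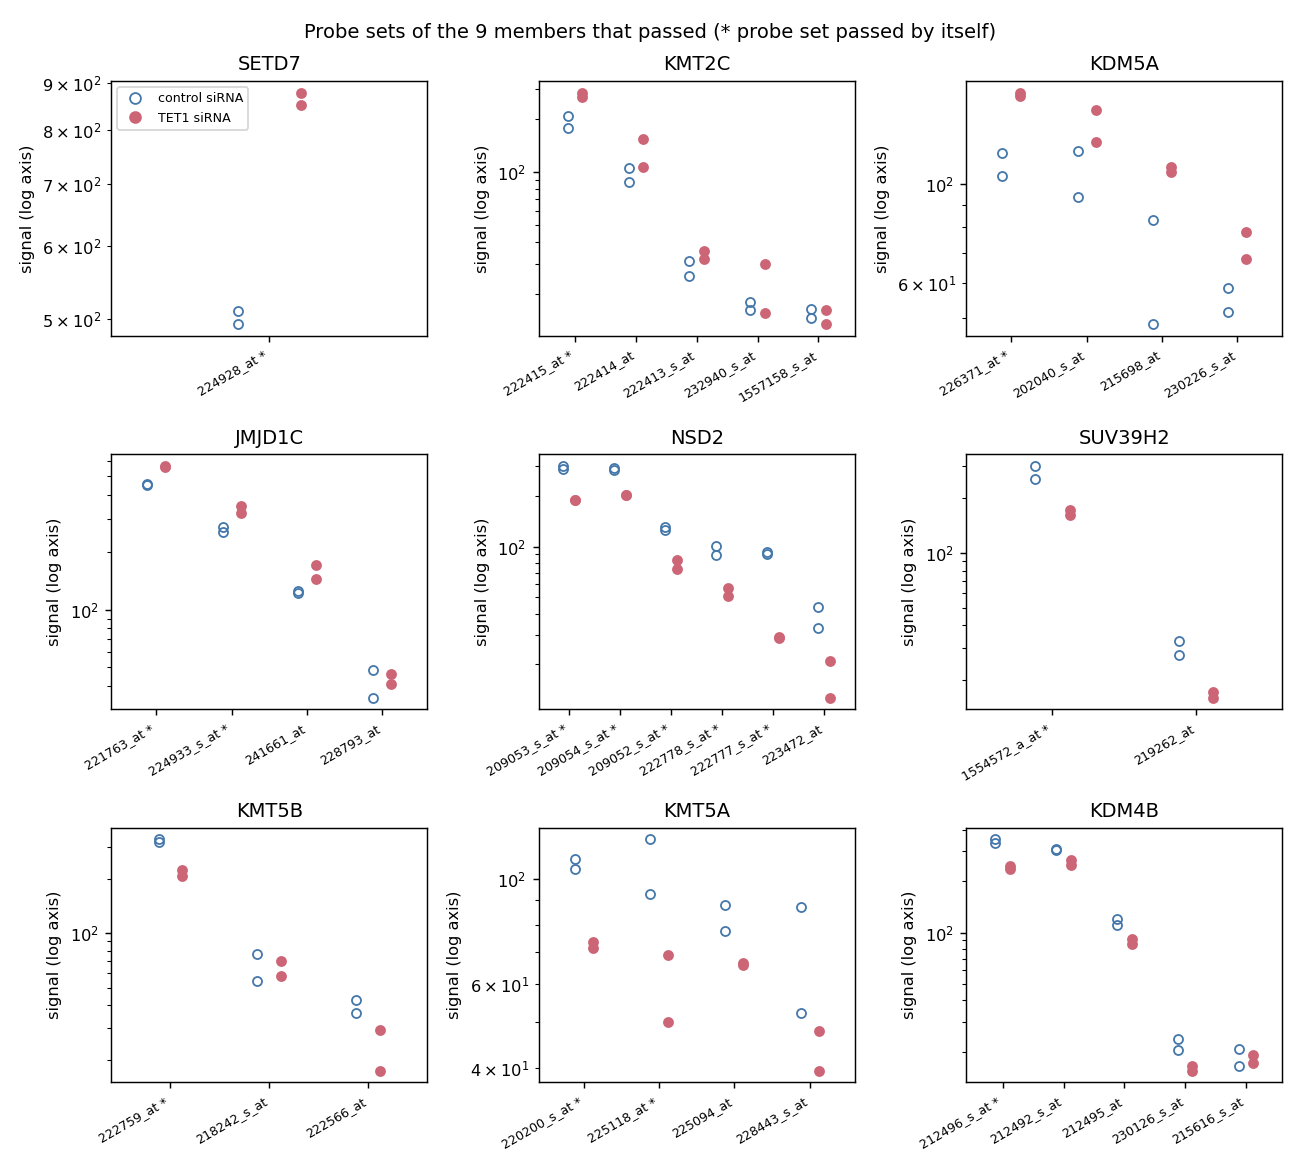
Signal (arbitrary units, log axis, with a scale of its own in each panel) of every tested probe set of the 9 enzymes that passed, on the 2 control siRNA arrays (open circles) and the 2 TET1 siRNA arrays (filled circles); an asterisk marks a probe set that passed by itself. All 6 NSD2 and all 4 KMT5A probe sets are lower after TET1 siRNA, while 1 of the 3 KMT5B probe sets shows overlapping groups.

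Subunits and partners of these enzymes, and related enzymes outside the set, were read from 7 further lists. Of 80 distinct genes tested 6 rose and 9 fell (18.8%), against 21.9% of all genes, and the difference was not tested. Among 12 COMPASS subunits, which bind the H3K4 writers, only WDR5 passed. WDR5, the adaptor shared by all complexes of the KMT2 and SETD1 enzymes, fell from 159.3 ± 0.707 to 62.75 ± 5.73 (SD, n = 2 each; log2 difference -1.16, SE 0.14, limma adjusted p = 1.74e-04). Its other probe set had 92.05 ± 11.1 against 72.65 ± 3.04 (SD, n = 2 each; -0.28, adjusted p = 0.251) and did not pass by itself. The median over the 12 subunits was -0.089.

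Of 12 other SET-domain or lysine methyltransferase genes 2 fell, EZH2, given above, and SETMAR (log2 difference -0.85, adjusted p = 0.0175), whose other probe set was at 0.76 (adjusted p = 0.0519 by itself). Of 12 other Jumonji genes JARID2, a Polycomb partner without demethylase activity, fell (-0.46, adjusted p = 0.0162), and both its probe sets passed. Among 11 partners of LSD1 and other demethylases 2 rose, the CoREST-family gene RCOR3 (0.64, adjusted p = 0.00198) and GSE1 (0.52, adjusted p = 0.00746). The other GSE1 probe set was at 0.07 with overlapping groups. Among 11 readers of H3K9 methylation and partners of its writers, MPHOSPH8, a subunit of the HUSH silencing complex, rose (0.36, adjusted p = 0.0336) and TRIM28, the corepressor that recruits SETDB1, fell (-0.57, adjusted p = 7.85e-04).

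Of 17 readers of H3K4, H3K36 and H4K20 methylation 2 rose and 3 fell. ING3 fell by 0.70 on the log2 scale (adjusted p = 0.00362) and ING1 by 0.58 (adjusted p = 0.00532), both with PHD fingers that bind trimethyl H3K4. A second ING3 probe set passed by itself (-0.73, adjusted p = 0.0153), and a dimmer one went the other way without passing (0.44, adjusted p = 0.231). MSH6, a mismatch repair protein that binds trimethyl H3K36, had -0.42 (adjusted p = 0.00902). MORF4L1, a chromodomain reader of H3K36 methylation, rose (0.45, adjusted p = 5.88e-04), and SPIN1, a reader of trimethyl H3K4, rose by 0.23 (adjusted p = 0.0414). Of 6 genes of the DOT1L complex and its relatives, the elongation factor gene AFF4 rose from 281.3 ± 23.1 to 529.8 ± 18.2 (SD, n = 2 each, log2 difference 0.88, SE 0.095, limma adjusted p = 9.26e-05). MLLT6 fell (-0.64, adjusted p = 0.0262), while its dimmer probe sets, at -0.04 and 0.42, did not pass by themselves.

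Of these 15 genes WDR5, EZH2 and TRIM28 passed in every alternative that gave a value except limma without moderation; EZH2 had none without _x_at and _s_at probe sets. Leaving out any 1 array ended the calls of MPHOSPH8 (adjusted p from 0.0590 to 0.209) and SPIN1 (0.105 to 0.176). Without control siRNA replicate 2 SETMAR (adjusted p = 0.109), GSE1 (0.0530), MSH6 (0.0777) and MLLT6 (0.142) did not pass, and without TET1 siRNA replicate 1 GSE1 (0.0751), MSH6 (0.0717) and MLLT6 (0.194) did not. Without TET1 siRNA replicate 2 SETMAR (0.131) and JARID2 (0.137) did not pass, and JARID2 also not without control siRNA replicate 1 (0.117). When a gene's probe sets were averaged, MPHOSPH8, SPIN1, SETMAR, GSE1, MSH6, RCOR3 (adjusted p = 0.0997), ING1 (0.0847), ING3 (0.0862), AFF4 (0.0812) and MLLT6 (-0.089, adjusted p = 0.772) did not pass. With no trend of variance on signal WDR5, EZH2, TRIM28, RCOR3, ING3 and AFF4 still passed, and the other 9 did not. With no filter on dim genes SETMAR (adjusted p = 0.0947), JARID2 (0.0798), MPHOSPH8 (0.0676), SPIN1 (0.0649) and MLLT6 (0.110) did not pass, and without _x_at and _s_at probe sets ING1 (0.128) did not.

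**Figure D4:**
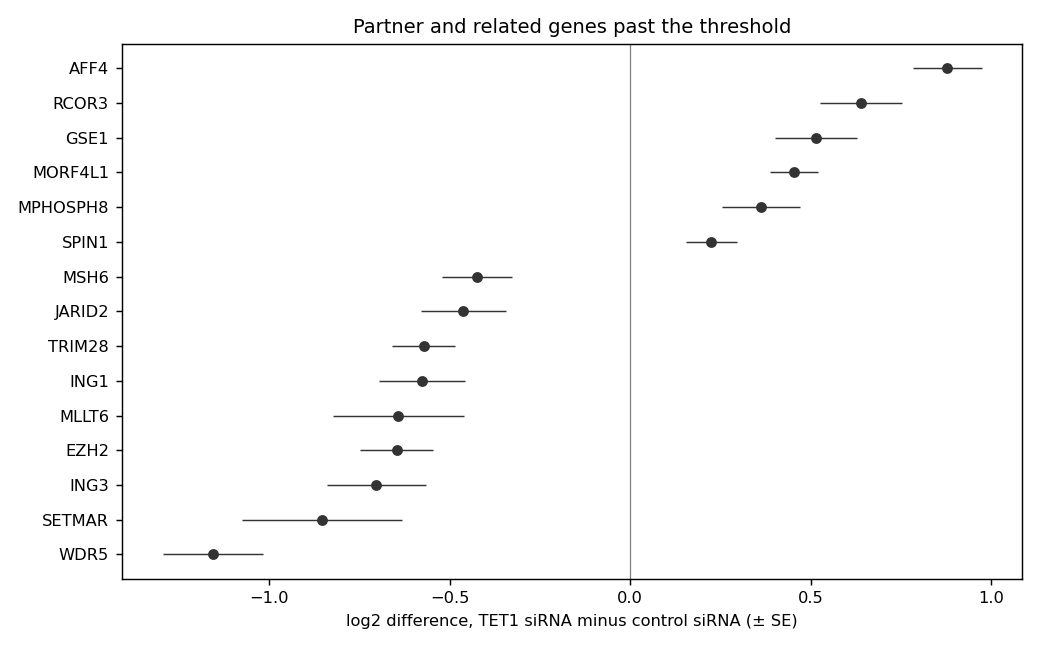
The log2 difference (TET1 siRNA minus control siRNA, points, ± SE from limma) of the 15 partner and related genes that passed. WDR5 (-1.16) lies lowest and AFF4 (0.88) highest.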

How the data were processed

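RNA of HCT116 cells was measured on 1 Affymetrix array per sample. The deposited table holds linear intensities that, as the values show, were scaled to a common level: with 2% trimmed from both tails every array averages 100.01. How background was corrected is not stated in the labels. Per the labels' protocols, cDNA was primed with oligo(dT), so signals come mainly from 3' ends. The members and lists were chosen with earlier results of these data known.

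Values were used as log2(signal + 16). Symbols came from the platform annotation, updated through RefSeq (GRCh38.p14, names only). The brightest probe set on average stood for a gene. Of 19775 genes, 12389 exceeded the median non-control probe set (signal 13.1) and were tested with limma 3.58.1 in R 4.3.3 (lmFit, eBayes with trend, two-sided, Benjamini-Hochberg over all genes, or over all probe sets, threshold 0.05). The fit has 2 residual and 9.24 prior degrees of freedom. With 2 arrays a group, the smallest exact permutation p is 0.33. The step was tested on simulated data. Each enzyme was classed by its best known lysine, or by a pair of lysines for KDM4A, KDM4B, KDM4C, KDM7A and PHF8. KMT2E, SMYD2, SMYD3 and SMYD5 were classed as other. By rule, array values are given for members past the threshold or with a probe set past it, and up to 4 genes past it are named per partner list; other array values, SPIN1, and the motifs were chosen after the results were seen. Alternatives changed normalization, pseudocount, variance model, filter, probe set choice and pairing, or left out an array. Figures used matplotlib 3.10.9.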

Additional observations from a re-analysis of the deposited data

How the results depend on the processing

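Under quantile normalization, median centring, pseudocounts of 1 and 64, the upper-quartile filter and the replicate block, all 9 calls of enzymes held. Members higher and lower were 4 and 5 as reported, 1 and 5 without a variance trend (7.94% of all genes called, against 21.9%), 0 and 3 when a gene's probe sets were averaged (NSD2, SUV39H2 and KMT5A; 14.4% of all genes), and 0 and 0 in limma without moderation (4 and 5 at unadjusted p below 0.05; 0% of all genes). Leaving out 1 array gave 1 to 3 higher (1 when TET1 siRNA replicate 1 was dropped, 2 when replicate 2 was) and 4 lower. Member probe sets higher and lower were 5 and 10, 1 and 1 without a variance trend (3.07% of all probe sets called, against 16.1%), 0 and 0 without moderation (7 and 13 at unadjusted p below 0.05; 0.00366%) and 1 and 7 with no filter (4.22%); without 1 array they were 1 to 4 and 7 to 8, with 3 higher without control siRNA replicate 1, 1 when TET1 siRNA replicate 1 was dropped and 2 when replicate 2 was. The median of writers ran from -0.108 to -0.0061 when 1 array was left out, and that of erasers from -0.069 to -0.036; the eraser median was -0.028 with median centring, -0.115 with the upper-quartile filter, -0.040 with averaged probe sets and -0.032 without _x_at and _s_at ones. TET1 kept its log2 difference of -1.28 without moderation but did not pass (adjusted p = 0.0964). SETMAR was at 0.76 (adjusted p = 0.0515) once _x_at and _s_at probe sets were dropped. Of 31 members that did not pass, 4 did in 1 alternative each: NSD3 (0.46), KDM6A (0.55), PHF8 (0.49) and SMYD2 (-0.29). The cause of these differences was not tested. Same-numbered arrays did not deviate together (r = 0.0055 over genes). With only 2 arrays a group, this cannot show whether the replicate numbers pair the samples. With the replicate block 4 members were higher and 5 lower, and 6 and 9 probe sets. The number of arrays and, for dim genes, signal near background limit the precision.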
